A study of Arabidopsis thaliana with 12 samples.

Results

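FMA, the gene also called FAMA (locus AT3G24140), encodes a basic helix-loop-helix (bHLH) transcription factor of Arabidopsis thaliana that acts at the last step of stomatal development. It was followed here through the single probe set that the platform annotation assigns to FMA alone, so 1 gene is described out of 13356 that have a probe set naming a single gene. Its probe set was found by annotation, and the gene was picked with earlier results of these data known. Total RNA of whole 1-week-old seedlings was hybridised to 12 Affymetrix ATH1 arrays. There were 4 groups of 3 arrays: 46T after dehydration, 46T without treatment (control), WT after dehydration, and WT control. WT is wild-type Col-0, and 46T, also written OV46 in the labels, is a single line overexpressing the transcription factor WRKY46. The promoter that drives WRKY46 in it is not stated in the labels, and WRKY46 itself is not analysed here, so the overexpression was not checked. Dehydrated seedlings lay on filter paper under dim light for 1 h, and the labels describe no mock handling of the controls. Sample titles number the arrays of each group as biological replicates. Within a group, Spearman correlations between arrays were 0.910 to 0.988. WT control replicate 1 stood apart on the second principal component (72.7, against -25.0 to 29.3 for the other arrays), and FMA, EPFL9, BLUS1 and COR47 in WT are also given without it. WT control replicate 2 was atypical in another way. At -20.1 on this component it lay within the range of the 46T arrays (-25.0 to -13.8), while the other WT arrays lay at 6.4 or above.

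Stomata are pores in the plant epidermis, each bounded by a pair of guard cells whose swelling and shrinking opens and closes it. The cells of the stomatal lineage pass through steps that are each governed by a related bHLH factor: SPCH starts the lineage, MUTE ends its asymmetric divisions, and FAMA stops the division of the guard mother cell and brings about guard cell identity. FAMA also specifies myrosin cells, the defence cells that line the vasculature. FMA transcripts are therefore expected in few cells of a seedling, and in RNA from whole seedlings fewer such cells and less FMA RNA per cell cannot be told apart.

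The FMA signal was low on every array. On the log2 scale it was 5.36, 6.09 and 5.81 in the 46T dehydrated seedlings (replicates 1 to 3), against 7.47, 7.11 and 6.77 in the 46T control seedlings. In the WT dehydrated seedlings it was 6.12, 6.95 and 6.34, against 6.52, 7.15 and 6.96 in the WT control seedlings. The 3 dehydrated 46T arrays held the 3 lowest of the 12 values and the 46T groups did not overlap, whereas the WT groups did. The overlap in WT came from dehydrated replicate 2 (6.95) lying above control replicate 1 (6.52). With either array left out, the WT groups did not overlap. On the linear scale the signal lay between 41.0 and 177.4, where the trimmed mean of all probe sets is 500.0 to 500.1 on each array. FMA stood between the 29.8th and the 50.9th percentile of the probe sets on its array. It exceeded the 40th percentile, the level used to decide which probe sets to test, on 7 of 12 arrays: on 0 of 3 dehydrated and all 3 control arrays of 46T, and on 1 of 3 dehydrated and all 3 control arrays of WT. FMA thus entered the tests mainly through its control arrays, and a fold against the dehydrated 46T level rests on a weak signal.

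**Figure D1:**
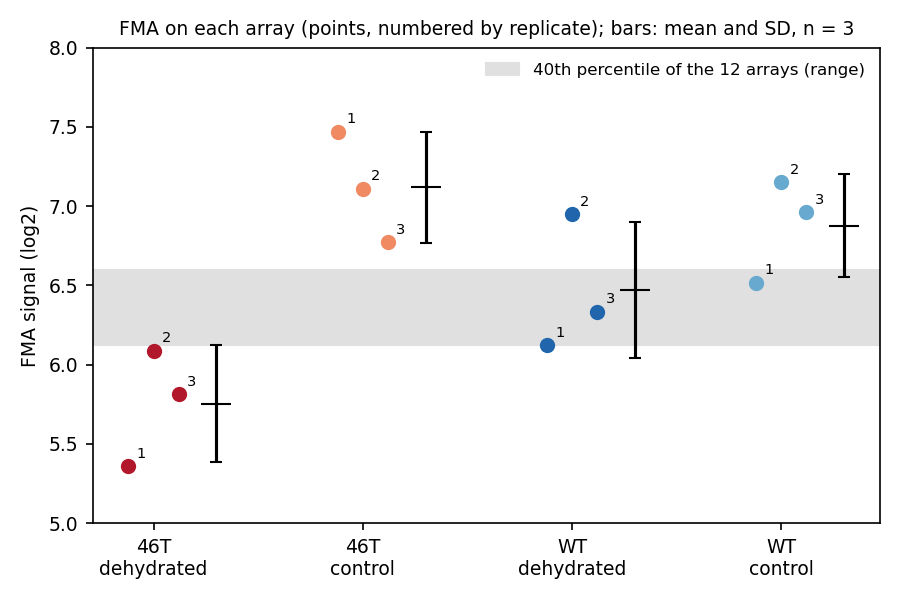
FMA log2 signal on each of the 12 arrays, by group; points are arrays with their replicate number, and the bars beside them give the mean and SD of 3 arrays. The grey band spans the 40th percentile of the 12 arrays, and the 3 dehydrated 46T arrays, at 5.36 to 6.09, lie below it.

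By group mean, the level was 5.75 ± 0.37 in 46T dehydrated, 7.12 ± 0.35 in 46T control, 6.47 ± 0.43 in WT dehydrated and 6.88 ± 0.33 in WT control seedlings (log2 signal, SD, n = 3 arrays each). In linear signal these groups averaged 55.1 ± 13.6, 141.7 ± 34.1, 91.4 ± 28.5 and 119.5 ± 25.7. From the highest level to the lowest, the order was 46T control, WT control, WT dehydrated and 46T dehydrated. Adjacent groups overlapped except at the lower end of that order, where the dehydrated 46T arrays all lay below the dehydrated WT arrays. The SD of FMA around its group means was 0.37, against a median of 0.26 over the tested probe sets, and 78.4% of these varied less.

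The first comparison asked how 1 h without water changed FMA in each line. In 46T, FMA fell by 1.37 ± 0.31 on the log2 scale (SE; limma adjusted p = 0.0105), which is 2.58-fold lower after dehydration, with a 95% confidence interval of 1.63-fold to 4.06-fold lower. Lower calls of this kind were made for 3.5% of the 14495 tested probe sets, and calls in either direction for 10.2%. FMA was among the larger falls: 48 tested probe sets, FMA included, differed by as much or more in that direction (0.331%), and it ranked 39th by size among the 507 that were called lower. A full separation of the 3 dehydrated arrays below the 3 control arrays was common in 46T and occurred for 24.7% of tested probe sets. An exact two-sided permutation test on these 6 arrays gave p = 0.10, the smallest value that its 20 regroupings allow. The call depended on single arrays: without 46T dehydrated replicate 1, which had the lowest FMA value, the difference was -1.17 (limma adjusted p = 0.0624), and without 46T control replicate 1, which had the highest, it was -1.19 (limma adjusted p = 0.0621). With a pseudocount of 50 added to the linear signal, which damps differences at low signal, the difference was -0.86 (limma adjusted p = 0.00972).

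In WT, FMA differed by -0.41 ± 0.31 between dehydrated and control seedlings and was not called (limma adjusted p = 0.446). The 95% confidence interval of this difference ran from -1.07 to 0.25 on the log2 scale, so a fall of up to 2.09-fold and a small rise both lie inside it. In this comparison 11.6% of the tested probe sets were called, and 4.3% were called lower (1057 higher and 623 lower, against 835 higher and 876 lower with each array centred on its median). WT dehydrated replicate 2, at 6.95, lay within the range of the WT control arrays, above replicate 1 (6.52) alone. The other WT dehydrated arrays, at 6.12 and 6.34, lay below all WT control arrays. Without WT dehydrated replicate 2 the difference was -0.65 (limma adjusted p = 0.289), and without WT dehydrated replicate 1 it was -0.23 (adjusted p = 0.764). WT control replicate 1, the array that stood apart, also had the lowest median signal of the 12. Its FMA value, 6.52, was the lowest of the 6 control arrays, and without it the WT difference was -0.59 (limma adjusted p = 0.233). Leaving out WT control replicate 2 instead gave -0.27 (limma adjusted p = 0.634).

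Averaged over both lines, FMA fell by 0.89 ± 0.22 after dehydration (SE; limma adjusted p = 0.00865), or 1.85-fold, with an interval of 1.34-fold to 2.55-fold lower. This comparison uses all 12 arrays and called 24.7% of the tested probe sets, and 12.4% of all tested probe sets were called lower. FMA was 1 of 1803 lower calls beside 1771 higher ones (2286 lower and 1491 higher with each array centred on its median). Of all tested probe sets, 167 (1.15%) differed by as much or more in this direction. The exact two-sided permutation test of the treatment labels within each line gave p = 0.01 over 400 regroupings, of which the smallest attainable p is 0.005. The averaged fall kept its call in all 20 alternatives in which FMA was tested, with differences between -1.01 and -0.56. Of the 6 dehydrated arrays, 5 had a lower FMA value than every control array, and WT dehydrated replicate 2 did not.

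**Figure D2:**
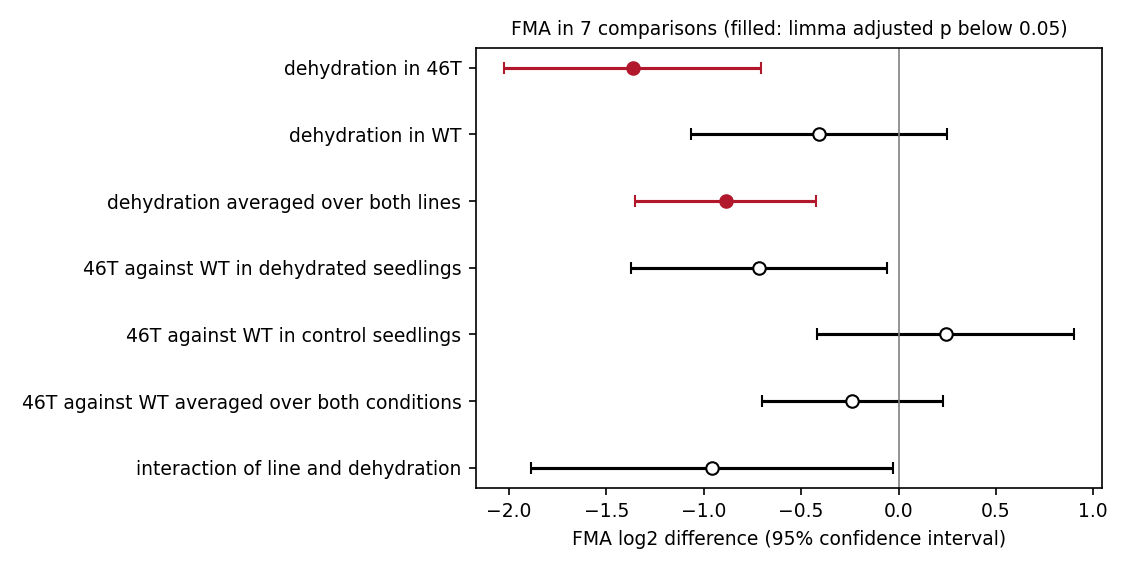
FMA log2 differences in the 7 comparisons, with 95% confidence intervals from limma; filled points have an adjusted p below 0.05. The fall on dehydration in 46T (-1.37) and the fall averaged over both lines (-0.89) are the called ones.

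The next comparison asked whether the lines differed in FMA. In dehydrated seedlings FMA was at 5.75 ± 0.37 in 46T and at 6.47 ± 0.43 in WT (log2 signal, SD, n = 3), a difference of -0.72 ± 0.31 that did not pass (limma unadjusted p = 0.0351, adjusted p = 0.490). The interval ran from -1.37 to -0.06. The difference was -0.48 without WT dehydrated replicate 2 (limma adjusted p = 0.653) and -0.42 with the pseudocount (limma adjusted p = 0.481). Other alternatives widened it, to -0.89 without WT dehydrated replicate 1 (limma adjusted p = 0.706) and -0.82 with each array centred on its median (limma adjusted p = 0.383). The 3 arrays of 46T lay below the 3 of WT, as they did for 8.75% of tested probe sets, and the 22 probe sets called in this comparison (0.152%) were all higher in 46T. In control seedlings FMA was at 7.12 ± 0.35 in 46T and at 6.88 ± 0.33 in WT, a difference of 0.24 ± 0.31 (limma adjusted p = 0.716) in a comparison that called 0.359% of probe sets. That difference was 0.06 without WT control replicate 1, 0.07 without 46T control replicate 1 and 0.07 with each array centred on its median. The median difference of all tested probe sets in the control comparison was 0.07 as deposited and -0.10 with centring. Averaged over both conditions the line difference was -0.24 ± 0.22 (limma adjusted p = 0.531; exact two-sided permutation within condition, p = 0.385), where 1.65% of probe sets were called.

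Whether dehydration acted on FMA differently in the lines was tested directly by the interaction. The fall in 46T exceeded the difference in WT by 0.96 ± 0.43 on the log2 scale (limma unadjusted p = 0.0445, adjusted p = 1.00), with an interval of the interaction from -1.89 to -0.03. In limma 0 of 14495 probe sets (0%) were called for the interaction at the adjusted threshold, while 291 had an unadjusted p below 0.05 and 1 was called with array weights. FMA was not that probe set. The call in 46T and its absence in WT are therefore not shown to differ, and the interval holds anything from nearly equal responses to a 3.70-fold stronger fall in 46T. Leaving out single arrays moved the interaction of FMA between -1.13 and -0.72.

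**Figure D3:**
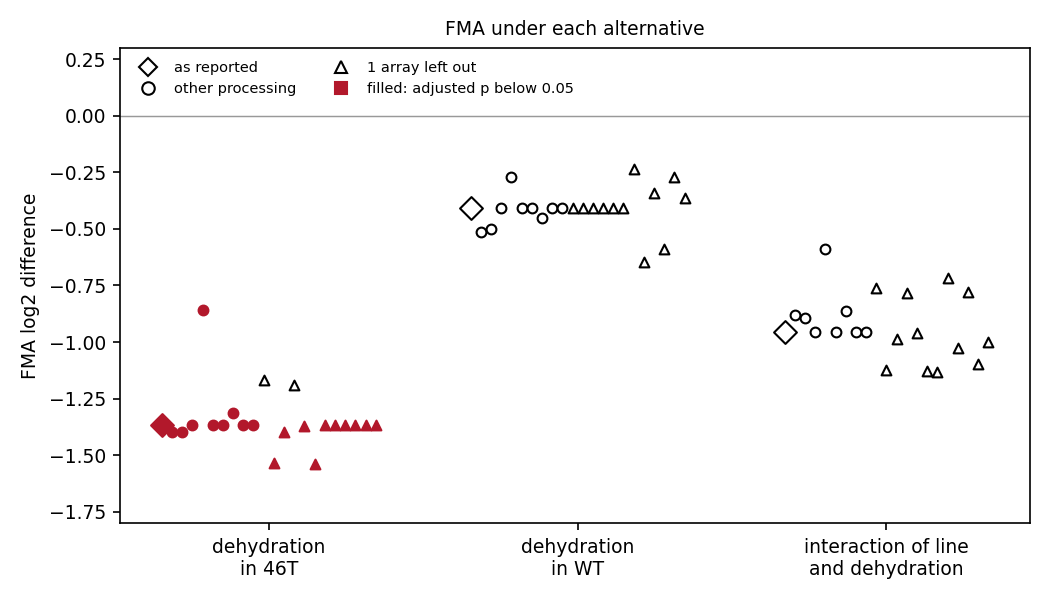
FMA log2 differences for dehydration in 46T, dehydration in WT and their interaction, as reported (diamonds), under other processing (circles) and with 1 array left out (triangles); filled symbols have an adjusted p below 0.05. The values for 46T lie between -1.54 and -0.86 and those for WT between -0.65 and -0.23, and none of the WT or interaction values is called.

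FMA was then set beside the other stomatal genes that the annotation names. Of 36 listed genes of the stomatal lineage, 4 had a probe set naming them alone (SPCH, MUTE, FMA and EPFL9), and of 37 listed genes of guard cell function 1 did, the protein kinase gene BLUS1. The other listed markers of guard cells, among them the potassium channel genes KAT1 and GORK, the anion channel gene SLAC1 and MYB60, are not analysed here, nor are the bHLH partner genes ICE1 and SCRM2. Guard cell identity behind the FMA signal was therefore not checked against a second gene of the guard cell marker list. BLUS1, from the list of guard cell function, is set beside FMA below. Of the 2 tested lineage genes, FMA and EPFL9, FMA itself was the 1 that was called, so the list adds no count beyond FMA.

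SPCH and MUTE, the bHLH factors of the preceding steps, did not exceed the 40th percentile on any of the 12 arrays and were not among the tested probe sets. The SPCH signal was 5.40, 5.91 and 2.47 in 46T dehydrated seedlings, against 5.42, 5.46 and 5.20 in 46T control seedlings. It was 6.04, 5.34 and 4.99 in WT dehydrated seedlings, against 5.81, 6.23 and 6.10 in WT control seedlings. Apart from 46T dehydrated replicate 3, the SPCH values of all groups lay between 4.99 and 6.23. MUTE had 1.56, 3.96 and 0.62 in 46T dehydrated seedlings, against 3.91, 3.91 and 5.05 in 46T control seedlings. It had 3.53, 3.42 and 4.29 in WT dehydrated seedlings, against 2.73, 2.12 and 1.11 in WT control seedlings. The MUTE means thus ran in opposite directions in the lines, with SDs within groups of up to 1.72. With no filter on low values, neither gene was called in any comparison, and the average over both lines was -0.68 for SPCH (limma adjusted p = 0.428) and -0.24 for MUTE (limma adjusted p = 0.869).

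EPFL9, also called STOMAGEN, encodes a peptide made in the mesophyll that promotes stomatal formation, and its signal was far from the filter. It was at 10.26 ± 0.12 in 46T dehydrated, 10.43 ± 0.17 in 46T control, 10.17 ± 0.16 in WT dehydrated and 10.31 ± 0.57 in WT control seedlings (log2 signal, SD, n = 3). Its difference averaged over both lines was -0.16 ± 0.16 (limma adjusted p = 0.512), with an interval from -0.50 to 0.18. WT control replicate 1, at 10.96, was its highest value and set the sign in WT. The EPFL9 difference in WT was -0.15 with this array and 0.18 without it (limma adjusted p = 0.741 and 0.428), and the average over lines was 0.0039 without it (limma adjusted p = 0.982).

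BLUS1 (AT4G14480), whose kinase relays the blue light signal for stomatal opening, was at 6.71, 6.72 and 6.56 in 46T dehydrated seedlings, against 7.58, 7.98 and 7.18 in 46T control seedlings. In WT dehydrated seedlings it was at 6.47, 7.13 and 5.72, against 7.004, 7.28 and 7.52 in WT control seedlings. Like FMA and 24.7% of tested probe sets, BLUS1 lay lower without overlap in dehydrated 46T seedlings. In WT it overlapped because dehydrated replicate 2 (7.13) lay above control replicate 1 (7.004), the array that stood apart, and above no other WT control. Averaged over both lines BLUS1 fell by 0.87 ± 0.23 (limma adjusted p = 0.0118), a call kept in all 20 alternatives. Within a line it differed by -0.91 ± 0.32 in 46T (limma adjusted p = 0.0904) and by -0.83 ± 0.32 in WT (limma adjusted p = 0.111) and passed in neither, although it did in 46T in 3 and in WT in 2 of 21 alternatives. The WT difference of BLUS1 was -1.18 without WT dehydrated replicate 2 (limma adjusted p = 0.0374), -0.47 without WT dehydrated replicate 3 (limma adjusted p = 0.358) and -0.96 without WT control replicate 1 (limma adjusted p = 0.0688). The interaction of BLUS1 was -0.08 ± 0.45 (limma adjusted p = 1.00). The difference between the falls of BLUS1 and FMA was not tested.

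Of the bHLH subgroup Ia, to which SPCH, MUTE and FAMA belong, bHLH94 (AT1G22490) was the other gene tested. Its level was 6.48 ± 0.39 in 46T dehydrated, 6.35 ± 0.12 in 46T control, 5.85 ± 0.34 in WT dehydrated and 6.31 ± 0.10 in WT control seedlings (log2 signal, SD, n = 3). It was called in 0 of the 7 comparisons, and its difference averaged over both lines was -0.17 ± 0.20 (limma adjusted p = 0.596).

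**Figure D4:**
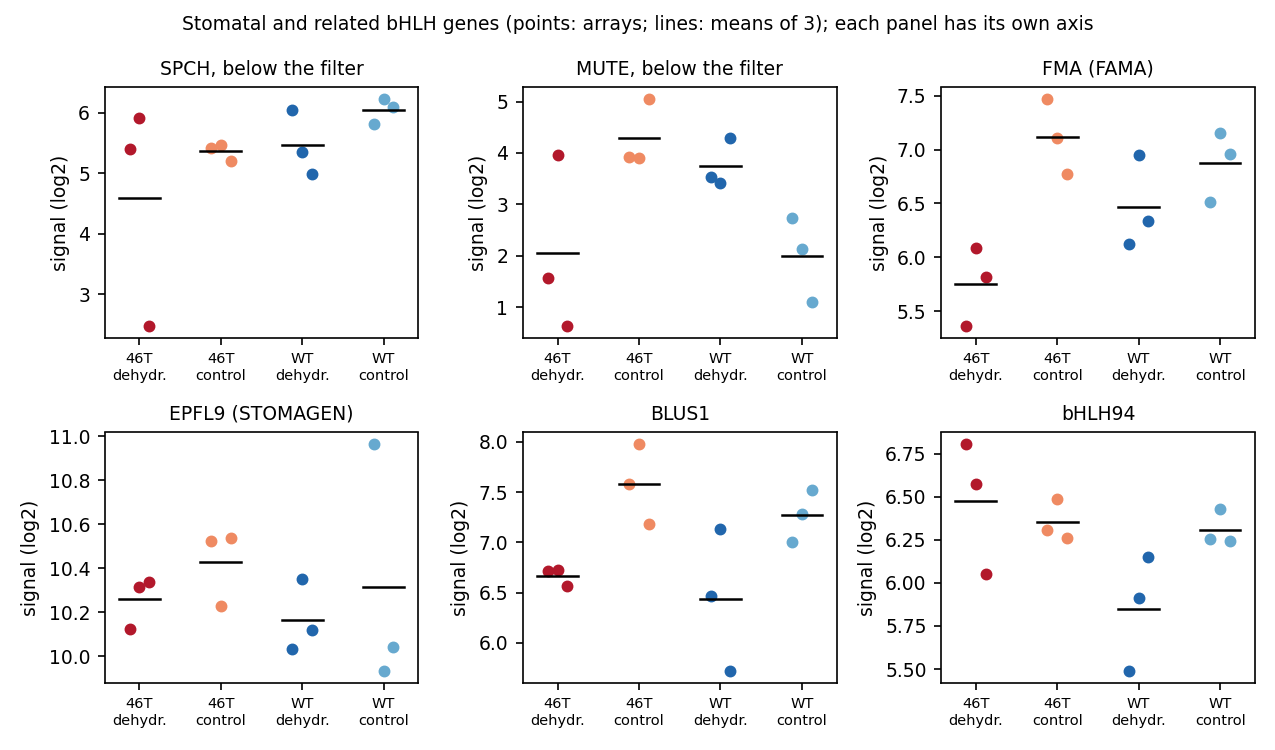
Log2 signal of SPCH, MUTE, FMA, EPFL9, BLUS1 and bHLH94 on each array, by group, with an axis of its own in each panel; points are arrays and lines are means of 3 arrays. FMA and BLUS1 are lower on all 3 dehydrated than on all 3 control arrays of 46T, as are 24.7% of tested probe sets. The EPFL9 arrays overlap in both lines.

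Markers of other tissues were few. RCA, the Rubisco activase gene of photosynthetic cells, averaged 14.84 in 46T dehydrated, 14.87 in 46T control, 15.03 in WT dehydrated and 15.01 in WT control seedlings, and its difference averaged over both lines was -0.005 (limma adjusted p = 0.975). AUR1, an Aurora kinase gene of dividing cells, differed by -0.17 ± 0.14 (limma adjusted p = 0.436), and TRY, a MYB gene that limits trichome formation, by 0.33 ± 0.29 (limma adjusted p = 0.455). TRY exceeded the 40th percentile on only 3 of 12 arrays. Within a line TRY differed by 0.83 ± 0.41 in 46T (limma adjusted p = 0.236) and by -0.17 ± 0.41 in WT (limma adjusted p = 0.842). EXPA7, an expansin gene of root hairs, did not exceed the 40th percentile on any array. The listed vascular and epidermal genes and the myrosin cell genes TGG1 and TGG2 are not analysed here. Each of these lists thus rests on 1 gene at most, and the part of tissue make-up in the FMA result was not tested. Among the listed dehydration genes, the dehydrin gene COR47 is the 1 that was tested. It was at 12.64 ± 0.25 in 46T dehydrated and 11.53 ± 0.06 in 46T control seedlings, a rise of 1.11 ± 0.23 (limma adjusted p = 0.00622). In WT it was at 12.10 ± 0.45 in dehydrated and 11.79 ± 0.42 in control seedlings, a difference of 0.31 ± 0.23 (limma adjusted p = 0.438). With single WT arrays left out it ranged from 0.09 (without WT dehydrated replicate 2) to 0.54 (without WT dehydrated replicate 1). It was 0.10 without WT control replicate 1, and 0.52 when replicate 2 of the WT controls was left out. It was called in none of 22 alternatives. COR47 rose by 0.71 ± 0.16 in the average over lines (limma adjusted p = 0.00577), so it was called in the same comparisons as FMA, with the opposite sign. COR15A and COR15B, cold- and drought-responsive genes, were below the filter. With no filter COR15A differed by 3.15 ± 0.78 in 46T (limma adjusted p = 0.0280), by 1.86 ± 0.78 in WT (limma adjusted p = 0.201) and by 2.503 ± 0.55 in the average (limma adjusted p = 0.00679). COR15B differed by 0.87 ± 0.82 in 46T (limma adjusted p = 0.676), by -1.31 ± 0.82 in WT (limma adjusted p = 0.437) and by -0.22 ± 0.58 in the average (limma adjusted p = 0.874).

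To see which genes had a pattern most like that of FMA, its log2 values were correlated over the 12 arrays with those of the 7833 other tested probe sets that name 1 gene. The points share the 4 groups, so these correlations carry the group differences as well as the scatter within groups, and they are given as a description. Pearson's r was above 0.8 for 35 probe sets and below -0.8 for 59. The highest values were those of AT5G04710 (r = 0.94), AT3G04160 (r = 0.93), AT2G42290 (r = 0.90), AT4G26370 (r = 0.89), AT3G45710 (r = 0.88) and AT5G23380 (r = 0.88), with Spearman's rho between 0.84 and 0.90. Leaving out the 2 arrays farthest from the FMA median, 46T dehydrated replicates 1 and 3, these r lay between 0.78 and 0.90.

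All 6 of these genes had their lowest group mean in 46T dehydrated and their highest in 46T control seedlings, as FMA did. They were chosen by their correlation with FMA on these same arrays, so this likeness follows largely from the choice. Their differences are given as a description. AT3G45710 had 6.87, 7.65 and 6.66 in 46T dehydrated seedlings, against 8.44, 8.69 and 8.46 in 46T control seedlings. In 46T it fell by 1.47 ± 0.25 (limma adjusted p = 0.00134), a call kept in all 22 alternatives. AT3G04160 had 4.45, 5.47 and 5.34 in 46T dehydrated seedlings, against 6.96, 6.71 and 6.66 in 46T control seedlings. In 46T it fell by 1.69 ± 0.42 (limma adjusted p = 0.0196), a call lost in 4 of 21 alternatives, each leaving out a 46T array, and it had a difference of -0.91 with the pseudocount. In 46T AT2G42290 fell by 0.92 ± 0.23 (limma adjusted p = 0.0221), a call lost in 5 of 21 alternatives. AT5G23380 fell by 0.88 ± 0.20 (limma adjusted p = 0.0117), a call lost in 2 of 22. Each of these losses came with a 46T array left out. AT4G26370 fell by 0.46 ± 0.14 (limma adjusted p = 0.0490), but was called in only 7 of 22 alternatives. AT5G04710, with the highest r, spanned a narrow range from 9.17 to 9.64 and was not called (-0.35 ± 0.14, limma adjusted p = 0.125). None of the 6 was called in WT or for the interaction.

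**Figure D5:**
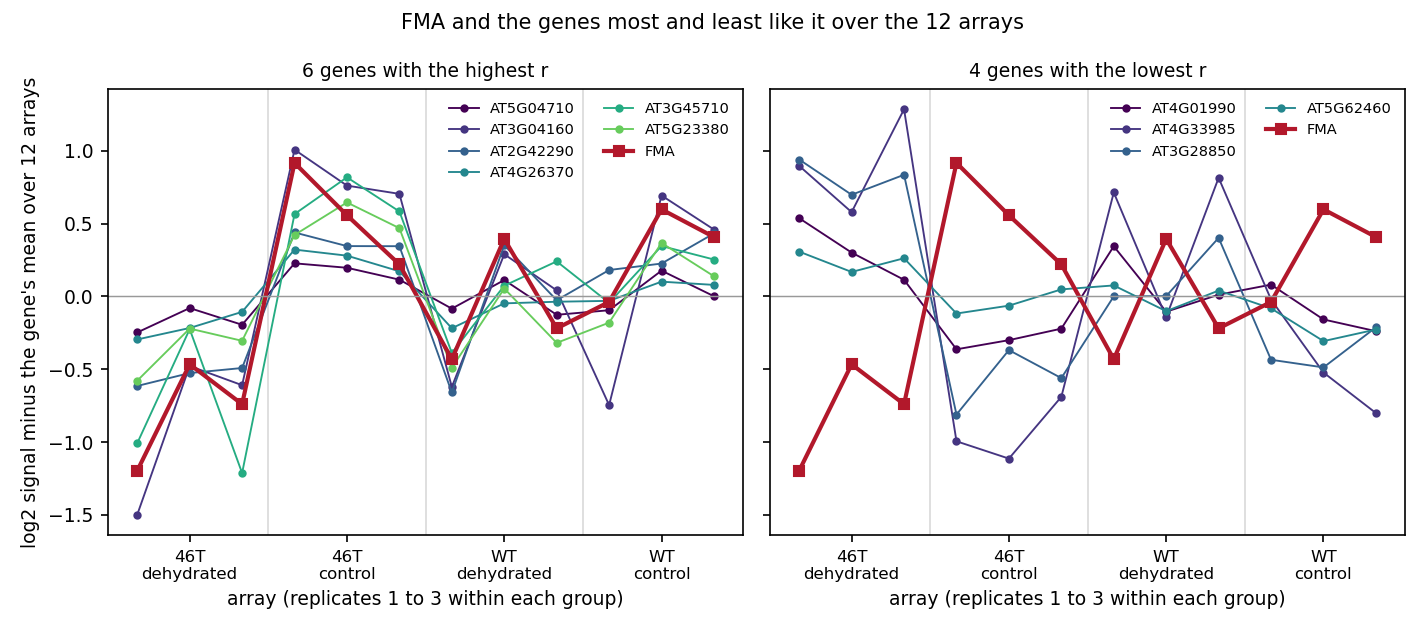
Log2 signal on each array, as a difference from each gene's mean over the 12 arrays, for FMA (squares) with the 6 genes of highest Pearson r (left) and the 4 of lowest r (right). Likeness in shape goes with ranges of different width, from AT5G04710, which varied least, to AT3G04160.

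The lowest correlations were those of AT4G01990 (r = -0.93), AT4G33985 (r = -0.90), AT3G28850 (r = -0.89) and AT5G62460 (r = -0.88). AT4G33985 had 7.64, 7.32 and 8.03 in 46T dehydrated seedlings, against 5.75, 5.63 and 6.05 in 46T control seedlings, and rose by 1.85 ± 0.31 (limma adjusted p = 0.00112). In WT it had 7.46, 6.60 and 7.56 in dehydrated seedlings, against 6.72, 6.22 and 5.94 in control seedlings. WT dehydrated replicate 2, the array with the highest FMA value of the dehydrated ones, was its lowest dehydrated value. AT3G28850 rose in 46T by 1.40 ± 0.18 (limma adjusted p = 8.9e-05). AT4G01990 and AT5G62460 were not called in 46T, at 0.61 ± 0.22 and 0.29 ± 0.13 (limma adjusted p = 0.102 and 0.204).

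With each group's mean subtracted, only the scatter of replicates is left. On this measure the genes most like FMA were AT3G11470 (r = 0.93), CW7 (r = 0.92), AT5G56190 (r = 0.91) and UGT80B1, a sterol glucosyltransferase gene (r = 0.90), and 49 probe sets were above 0.8. None of these 4 was called for dehydration in 46T, in WT or in the average. Among the genes of highest r over the 12 arrays, AT5G04710, AT3G04160 and AT5G23380 also had r within groups above 0.8 (0.89, 0.85 and 0.80). Of these, AT5G04710 was not called in 46T, while AT3G04160 and AT5G23380 were. AT5G56190 had r = 0.18 over the 12 arrays before the means were subtracted.

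The genes beside FMA on its chromosome were described in the same way. Of the 5 nearest genes on each side that have a probe set naming them alone, 8 of 10 were tested. In 46T 1 of these 8 rose and 0 fell, where 6.69% of all tested probe sets rose and 3.5% fell, with differences between -0.57 and 0.67 and a median of -0.05, against a median of -0.07 over all tested probe sets. The gene that rose was GR1, a glutathione reductase gene, at 11.38 ± 0.25 in 46T dehydrated and 10.74 ± 0.12 in 46T control seedlings (log2 signal, SD, n = 3), a rise of 0.64 ± 0.16 (limma adjusted p = 0.0213) whose call was lost in 5 of 22 alternatives, among them centring on the median. In WT 2 of the 8 rose, where 7.29% of all tested probe sets rose: GR1 by 0.80 ± 0.16 (limma adjusted p = 0.00596) and AT3G24190 by 0.61 ± 0.18 (limma adjusted p = 0.0431). None of the 8 fell in WT, where 4.3% of all tested probe sets did. The call of AT3G24190 in WT was kept in 8 of 22 alternatives. In the average over lines GR1 and AT3G24190 rose (AT3G24190 was not called when 46T control replicate 3 was left out) and AT3G24120 fell by 0.37 ± 0.09 (limma adjusted p = 0.0102), where 12.2% of all tested probe sets rose and 12.4% fell. With 8 genes these counts are too small to set apart from those shares. The nearest of these genes before FMA, AT3G24130, was below the filter on all 12 arrays. It had 1.04, 2.28 and 3.21 in 46T dehydrated seedlings, against 4.29, 4.47 and 3.96 in 46T control seedlings. Its groups thus did not overlap in 46T, a separation also seen for 24.7% of tested probe sets. With no filter its difference there was -2.06 ± 0.84 (limma adjusted p = 0.206). The nearest after FMA, AT3G24150, differed by -0.21 ± 0.17 in the average over lines (limma adjusted p = 0.412).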

How the data were processed

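Per the submitters' processing notes, signals were made with MAS5, in a version the sources used here do not name. The authors deposited log2 signals, scaled on each array to a common trimmed mean, and were not normalized again. Precision is limited by the number of arrays. After removal of 64 control probe sets, 14495 of 22746 were tested, those whose signal exceeded the 40th percentile of the array in 3 or more arrays. limma 3.58.1 in R 4.3.3 fitted 4 group means (lmFit, contrasts.fit, eBayes with an intensity trend). P-values are two-sided and adjusted by Benjamini-Hochberg over all tested probe sets; a call is an adjusted p below 0.05. The fit was tested on simulated data with changes placed only in probe sets at or above the median mean signal (8.64). FMA averaged 6.55, so that test does not cover its level. The platform annotation lists 13513 probe sets with 1 gene (13436 matched in RefSeq's TAIR10.1 table, by which symbols were updated), 503 with several and 8730 non-control ones not at all. FMA, the lists and the tests were chosen with earlier results of these data known. Named genes were FMA, all tested genes of the stomatal, guard cell and bHLH lists, up to 3 of each marker list, the 6 highest, 4 lowest and 4 highest within-group correlations, and 5 neighbours on each side. SPCH, MUTE and other genes below the filter are given as values. FDH was dropped from the epidermal list because RefSeq's FDH is another gene. Within a group, Spearman correlations were 0.910 to 0.988. The alternatives were other scalings, a floor, a pseudocount, filters, fits, weights, a replicate block and each array left out.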

Additional observations from a re-analysis of the deposited data

How the results depend on the processing

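FMA kept the direction of its differences in all 7 comparisons under all alternatives in which it was tested; under the stricter filter (above the 60th percentile on 3 arrays) it was not tested. The call in 46T was kept in 19 of 21 alternatives (differences from -1.54 to -0.86), and the range over arrays left out was -1.54 to -1.17, the 2 lost calls being those without 46T dehydrated replicate 1 or 46T control replicate 1. The other 6 comparisons of FMA kept their side of the threshold in every alternative. With the pseudocount the group levels were 6.71 in 46T dehydrated, 7.57 in 46T control, 7.12 in WT dehydrated and 7.39 in WT control, by construction.

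Among the other named genes, uncalled differences changed sign for EPFL9 in WT (0.12 with array weights; -0.34 to 0.18 with 1 array left out, 0.18 without WT control replicate 1), for EPFL9 averaged over lines (-0.25 to 0.0039, and 0.0039 without that array) and for bHLH94 in 46T (-0.042 to 0.34, and -0.042 without 46T dehydrated replicate 1). Counts of called probe sets moved more. In fits of only the groups compared they were 3079 for dehydration in 46T, 751 in WT, 206 for the lines after dehydration and 14 in controls. With array weights they were 3770, 3469, 5726 averaged over lines, 432, 2926, 3752 for the lines averaged over conditions, and 1 for the interaction. The weights of WT control replicates 1 to 3 were 0.14, 0.30 and 3.84, so the WT control mean in that fit rested mostly on replicate 3. For the lines after dehydration the counts were 36 after quantile normalization, 35 with the floor and 50 with the pseudocount. The stricter filter gave 32 for the lines in controls and 144 averaged, and median centring gave 85 in controls (38 higher, 47 lower, against 38 and 14). With 1 array left out the counts ranged from 772 to 2382 in 46T, 833 to 2372 in WT, 2647 to 4803 averaged over lines, 13 to 176 for the lines after dehydration, 13 to 1640 in controls (1640 without WT control replicate 2) and 77 to 2693 averaged over conditions (2693 without the same array; 165 higher and 74 lower as reported, 149 and 161 with centring). The highest counts for dehydration (2382, 2372 and 4803) and for the lines after dehydration (176) came without WT control replicate 1. The cause was not tested.

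Whether the replicate numbers pair the arrays was not settled. Of 18 same-numbered pairs, 5 deviated together with r above 0.1 (-0.12 to 0.35, median 0.03). Different-numbered pairs had r from -0.36 to 0.14 (median -0.01). With the replicate block FMA in 46T had a limma adjusted p of 0.0087 and the count for the lines averaged over conditions was 423 against 239; the block changed no call of FMA.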
